A study of Arabidopsis thaliana with 12 samples.

Results

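Described here are 150 of 3439 array probes, those that stood out most clearly as brighter in plants kept under strong blue light than in plants kept under weak white light, relative to the other probes of the same array. The number 150 was set by the selection rule, and 308 of the 2278 probes that could be chosen ranked higher on every blue-light array than on any white-light array. The study measured total RNA of wild-type Arabidopsis thaliana, ecotype Landsberg, on 12 arrays. The RNA of 6 arrays came from plants exposed to white light of 20 µE for 48 hours, and that of the other 6 from plants grown finally in blue light of 200 µE for 48 hours. All plants were wild type, so colour and fluence, which differed 10-fold, were the only labelled differences, and they changed together. The labels do not state the organ or the age of the plants.

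The 150 probes were chosen from the readout itself. Probes were ranked by intensity on each array, with the brightest at rank 1 and the rank given as a share of all probes. A probe could be chosen if it was above 0 on all 12 arrays and was not among the 100 with the highest mean rank, which left 2278 probes. Its gap was its lowest rank on the 6 blue-light arrays minus its highest rank on the 6 white-light arrays, and the 150 probes with the largest gap were taken. The contrast between the lights therefore defines the group, and the blue-against-white values of the members below are descriptions. The fit over all probes is quoted for members as 1 count of calls, which is no independent test of them.

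Blue light is sensed in plants by cryptochromes and phototropins, and strong light is used and, in excess, disposed of in the chloroplasts. Most chloroplast proteins, and the proteins that maintain and express the genomes of chloroplasts and mitochondria, are encoded in the nucleus. Transcripts for pigment synthesis, carbon and sulphur metabolism and photoprotection are known to respond to light. The RNA is a bulk extract, so fewer cells of a type and less RNA per cell cannot be told apart in these values.

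A table of probe names listed a single gene for 30 of the 150 probes, several genes for 38 and none for 82. These shares, 20.0%, 25.3% and 54.7%, lay beside 19.3%, 26.4% and 54.3% among the 2278 probes that could be chosen. Of the 30 single genes, 29 were found in RefSeq by gene identifier, and AT1G03660 kept the name of the platform annotation. Probes with several genes are not named here, and probes without a gene are given by number. No gene positions are given, because no genome build is named for the arrays.

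Intensities were relative values on a scale that ended at 100. The array medians were 0.0920 to 0.216 in the white-light group and 0.171 to 0.218 in the blue-light group. White-light arrays 5 and 6 had a summed intensity of 1044 each, compared with 1988 to 2917 for the other arrays of that light and 2800 to 3337 for the blue-light group. Arrays 1 and 2, 3 and 4, and 5 and 6 of each group resembled each other, with correlations of 0.150 to 0.427 across probes between their deviations from the group mean. The labels do not say whether the 6 arrays of a group came from separate plants, so spreads between arrays may be technical. Differences are therefore given over the 6 arrays and again in each of the 3 sets. The number of arrays limits the precision of every value.

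On the middle member the rank moved from the lower part of the array to its upper part. The members' mean ranks had a median of 0.435 in white and 0.790 in blue light, and those of all 2278 probes 0.601 and 0.612. Under white light 8 of the 150 had a mean rank under 0.25, 88 lay between 0.25 and 0.5, 50 between 0.5 and 0.75, and 4 above 0.75. Under blue light 87 of them lay above 0.75 and 2 under 0.5. On all 6 white-light arrays 48 members were below the middle of the array, and 37 of these were above the middle on all 6 blue-light arrays. A rank describes how bright a spot is on its array. It does not compare the abundance of different transcripts, since probes differ in how strongly they bind.

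**Figure D1:**
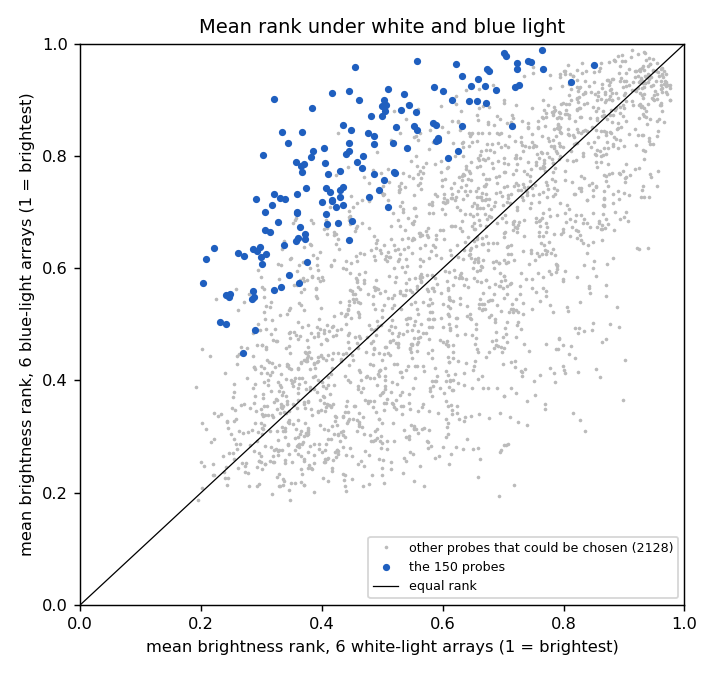
Mean brightness rank over the 6 blue-light arrays (vertical axis) against the mean over the 6 white-light arrays (horizontal axis), both as a share of 3439 probes with the brightest at 1. Blue points are the 150 probes, grey points the other probes that could be chosen, and the line marks equal rank. The 150 probes lie above the line, with median ranks of 0.435 and 0.790.

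The members were similarly placed on all arrays of a light. The 150 probes had a median rank of 0.428 to 0.459 on arrays of the white-light group and of 0.773 to 0.800 in the blue-light group. On the deposited scale their median intensity was 0.0827 to 0.182 in the white-light group and 0.509 to 0.720 in the blue-light group. The lower ends belonged to white-light array 5 and blue-light array 5.

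**Figure D2:**
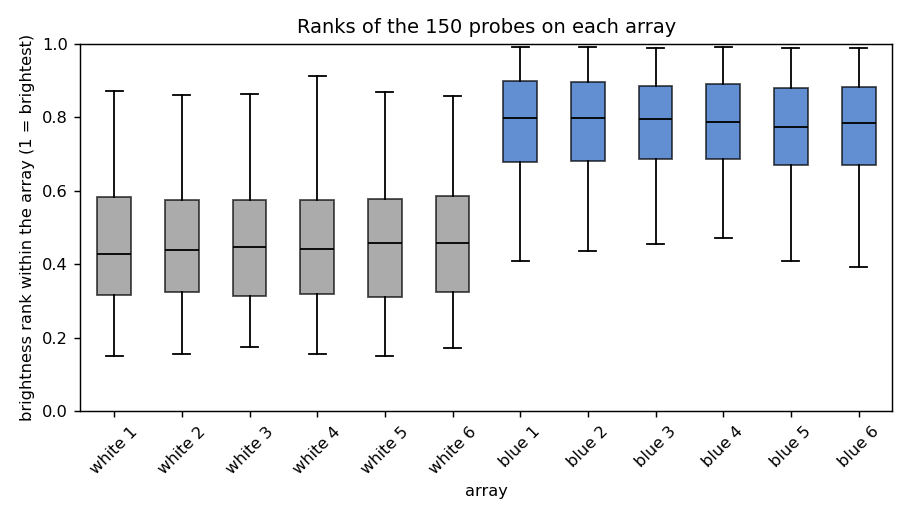
Brightness ranks of the 150 probes (vertical axis, share of all probes with the brightest at 1) on each of the 12 arrays (horizontal axis). Boxes span the quartiles, the line is the median and the whiskers reach the lowest and highest member. Medians lie between 0.428 and 0.459 on the white-light arrays and between 0.773 and 0.800 on the blue-light arrays.

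The sizes of the differences were taken from log2 intensities that were quantile normalized, so that all arrays shared the same distribution of values. The log2 difference, blue minus white light, had a median of 1.89 over the 150 members, with quartiles of 1.55 and 2.37, against a median of -0.09 over the 2776 probes tested. Of the 150, 145 were at least 2-fold brighter under blue light, 68 at least 4-fold, 12 at least 8-fold and 3 at least 16-fold. Over the 2776 tested probes the upper quartile of the log2 difference was 0.65, which is under 2-fold. How many of those probes passed each limit was not counted. The rule favours large differences, so nothing is read from the members' counts. By limma's moderated test over all probes, 149 of the 150 were among the 544 probes called higher at an adjusted p of 0.05, a call made for 19.6% of the probes tested (45.3% when calls in either direction are counted). Because the selection used this contrast, nothing is read from that count. Without normalization between arrays 864 probes were higher among 1184 called, against 544 among 1257 after it, and with averaged sets 228 were higher among 521. The exception among the members was probe 1485, with a log2 difference of 1.79 ± 2.02 (SD over the 6 pairs of arrays with the same number) that was 0.49 on arrays 1 and 2, 0.83 on arrays 3 and 4 and 4.06 on arrays 5 and 6. Its lowest white-light intensity was 0.00154, and its median blue-light intensity was 1.67 times the median in white light. Among the 2278 probes, all blue-light ranks lay above all white-light ranks for 308, or 13.5%, and the members are the 150 of these with the widest gap. Without normalization between arrays the members' median was 2.48, while the median of all tested probes moved from -0.09 to 0.45.

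The named genes are taken by role, beginning with those for organelle genomes and their expression. The roles of 17 genes were assigned from their names after the members were known and serve to order the description. How often such roles occur among the other probes was not counted, so whether any role is characteristic of the members is not known. OSB1, an organellar single-stranded DNA-binding protein that guards the mitochondrial genome against recombination, had deposited intensities of 0.0112 to 0.0837 under white light (median 0.0300) and of 0.219 to 0.394 under blue light (median 0.305). Its lowest blue-light array was more than double its highest white-light array. The log2 difference of OSB1 was 3.05 ± 0.92 (SD, n = 6 pairs), and it was 3.38, 3.27 and 2.51 in the 3 sets. The white-light intensities of OSB1 are close to 0, so this size rests on dim spots.

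AT3G18870, a member of the family of mitochondrial transcription termination factors, had intensities of 0.0284 to 0.155 (median 0.0789) under white light and 0.268 to 0.344 (median 0.317) under blue light. The groups did not overlap, which held for all 150 members on the deposited scale. By rank, which the rule used, blue-light arrays lay above all white-light arrays for 308 of the 2278 probes, or 13.5%. On the deposited scale this was not counted for other probes, so nothing is read from it. The log2 difference of AT3G18870 was 1.79 ± 0.73 (SD, n = 6 pairs). AT4G04370 and AT2G46050 encode pentatricopeptide repeat proteins, a large plant family that binds organelle RNA. AT4G04370 had 0.0665 to 0.161 (median 0.0871) under white light and 0.453 to 0.576 (median 0.516) in blue light, a log2 difference of 1.88 ± 0.57. AT2G46050 had 0.0325 to 0.154 (median 0.121) under white light and 0.192 to 0.731 (median 0.610) under blue light. Its blue-light arrays were uneven. AT2G46050 was lowest on blue-light array 5, its log2 difference was 1.77 ± 0.45, and its gap of 0.0800 was near the limit of the selection.

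AT2G25870, the chloroplast endoribonuclease YbeY that takes part in ribosomal RNA processing, had intensities of 0.0809 to 0.140 (median 0.119) under white light and 0.341 to 0.591 (median 0.503) under blue light, a log2 difference of 1.55 ± 0.46. A second probe listed with AT2G25870 alone, probe 2727, went the other way. Its intensities were 0.123 to 0.459 (median 0.246) under white light and 0.140 to 0.171 (median 0.169) under blue light, so that the groups overlapped on the deposited scale. Probe 2727 is not a member, and it fell in the fit over all probes (log2 difference -1.10 ± 0.27 SE, limma adjusted p = 0.00505). It did not pass without normalization between arrays (-0.57), with arrays averaged into sets, or without arrays 1 and 2 (-0.66). The probes of this gene thus disagree in direction, and the change of its transcript is not settled here.

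Next come genes with roles in plastid metabolism. HEMA3, one of the glutamyl-tRNA reductases that open the pathway to chlorophyll and heme, had intensities of 0.0664 to 0.344 (median 0.295) under white light and 0.870 to 1.12 (median 0.959) under blue light. Its white-light values fell into 0.272 to 0.344 on arrays 1 to 4 and 0.0901 and 0.0664 on arrays 5 and 6. The log2 difference of HEMA3 was 1.60 ± 0.72 (SD, n = 6 pairs), with 0.95, 1.40 and 2.46 in the 3 sets. AT1G24360, the reductase of the chloroplast fatty acid synthase, had 0.0828 to 0.392 (median 0.0881) under white light and 0.660 to 1.04 (median 0.910) under blue light. It was bright on white-light arrays 3 and 4, at 0.374 and 0.392, and between 0.0828 and 0.0913 on the other white-light arrays. Its log2 difference was 2.0 ± 0.82, with 2.97, 1.16 and 1.87 in the sets.

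APS4, an ATP sulfurylase at the entry of sulphate assimilation, had intensities of 0.0266 to 0.234 (median 0.188) under white light and 0.374 to 0.549 (median 0.441) under blue light. Arrays 5 and 6 again held the lowest white-light values, 0.0453 and 0.0266, and the log2 differences in the sets were 0.55, 1.27 and 2.52. AT2G35390, a phosphoribosyl pyrophosphate synthetase that supplies nucleotide synthesis, had 0.0893 to 0.115 (median 0.0984) and 0.252 to 0.344 (median 0.312). On the deposited scale its arrays were close together within each light, and its log2 difference was 1.16 ± 0.57. AT5G09820, the fibrillin FBN5 needed for plastoquinone synthesis, had 0.0486 to 0.102 (median 0.0699) and 0.115 to 0.256 (median 0.203), a log2 difference of 1.14 ± 0.62. Probe 1796, which lists AT5G09820 together with other genes, rose as well (log2 difference 1.09 ± 0.21 SE, limma adjusted p = 0.00105), a call lost with averaged sets. AT4G13200, a protein found in plastoglobules, the lipid droplets of thylakoids, had 0.0117 to 0.123 (median 0.106) and 0.190 to 0.279 (median 0.270). Its log2 difference was 1.42 ± 1.16, and its lowest white-light value came from array 5.

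Further genes have roles in transport, signalling and translation. AT2G31800, a protein kinase of the integrin-linked family, had the largest log2 difference of all 30 single-gene probes, 3.11 ± 1.09 (SD, n = 6 pairs). Its intensities were 0.0337 to 0.291 (median 0.162) under white light and 1.62 to 1.70 (median 1.68) under blue light. The 6 blue-light arrays were nearly equal, and the white-light arrays spread widely, with arrays 5 and 6 lowest. ILA, a HEAT-repeat protein related to the translation regulator GCN1 of yeast, had 0.0216 to 0.323 (median 0.223) and 0.749 to 0.976 (median 0.818). Its log2 difference was 2.02 ± 1.32, with 1.12 on arrays 1 and 2, 1.38 on arrays 3 and 4 and 3.56 on arrays 5 and 6.

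AT3G16310, a nucleoporin of the NUP35 type, had intensities of 0.102 to 0.285 (median 0.181) under white light and 0.787 to 1.49 (median 1.32) under blue light, a log2 difference of 1.96 ± 0.47. AT2G28660, which carries a heavy-metal-associated domain of the copper chaperone type, had 0.0787 to 0.178 (median 0.118) and 0.522 to 0.658 (median 0.565), a difference of 1.79 ± 0.31. Its differences in the sets, 1.77, 2.03 and 1.55, were close to each other. AT4G24840, subunit COG2 of the complex that tethers vesicles at the Golgi, had 0.0609 to 0.186 (median 0.130) and 0.302 to 0.550 (median 0.497), a difference of 1.37 ± 0.42. AILP1, an aluminium-induced protein-like gene, had 0.0907 to 0.186 (median 0.105) and 0.338 to 0.574 (median 0.469), a difference of 1.51 ± 0.70. It was smallest on arrays 5 and 6, at 0.77. A probe that lists AILP1 with other genes was listed at 0 on 2 of the 6 arrays in white light and 3 of the 6 in blue light, and gives no comparison.

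The other 13 single-gene probes carry no role here, and their log2 differences ran from 0.95 to 2.94. AT4G27510 had the widest gap of all 30 genes, 0.290, with intensities of 0.0731 to 0.242 (median 0.165) under white light and 0.715 to 1.36 (median 1.14) under blue light. Its log2 difference, 2.24 ± 0.25, varied little between the sets, which gave 2.38, 2.14 and 2.19. AT1G16080 had the largest difference of these 13, 2.94 ± 0.62, with intensities of 0.124 to 0.877 (median 0.351) and 2.26 to 6.48 (median 5.03). AT2G31920 (2.44), AT1G64430 (2.43), AT2G44760 (2.41), AT1G33250 (2.28), AT2G21720 (2.204), AT2G38070 (2.12) and AT1G55440 (2.08) were each more than 4-fold brighter under blue light. AT3G54550 (1.68) and AT3G09050 (1.33) lay between 2-fold and 4-fold. AT1G03660 (0.99) and AT1G50390 (0.95) were the single genes under 2-fold, and their gaps of 0.0762 and 0.0753 were close to the limit. AT2G38070 also stands on probe 1544 together with other genes, and that probe fell (log2 difference -1.31 ± 0.36 SE, limma adjusted p = 0.00966). Without normalization between arrays (-0.78), with averaged sets, with the sets as a random block, and without arrays 1 and 2 (-1.03) or 3 and 4 (-1.04), probe 1544 did not pass.

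**Figure D3:**
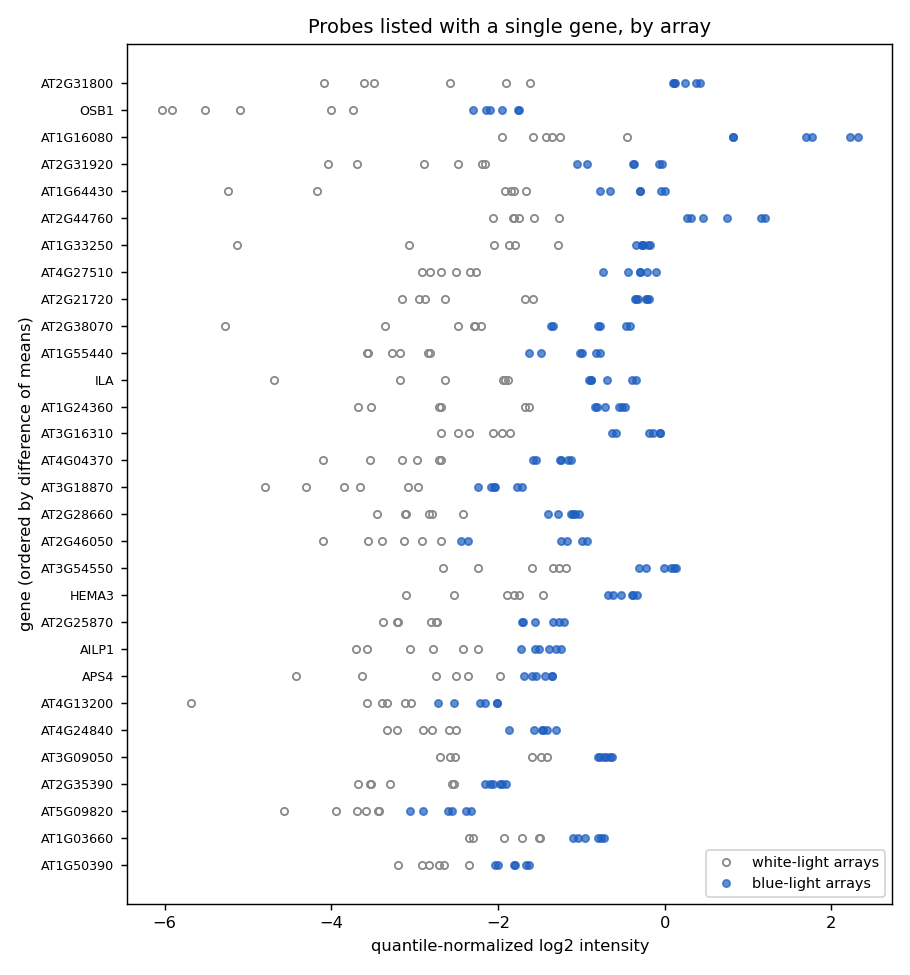
Quantile-normalized log2 intensity (horizontal axis) of the 30 probes listed with a single gene (vertical axis, ordered by the difference of means). Open grey circles are the 6 white-light arrays and filled blue circles the 6 blue-light arrays. For every gene the blue circles lie to the right of the grey ones, which the selection rule fixed, with differences from 0.95 for AT1G50390 to 3.11 for AT2G31800.

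Among the 10 widest gaps, 7 belonged to probes with no gene, 2 to probes with several genes and 1 to AT4G27510. Over all members the median gap was 0.160 for single-gene probes, 0.127 for probes with several genes and 0.140 for probes with none. Probe 3053 had the widest gap, 0.395, with intensities of 0.0405 to 0.113 (median 0.0871) under white light and 0.793 to 2.64 (median 1.78) under blue light. Its mean rank moved from 0.321 to 0.902, and its log2 difference was 3.66 ± 0.84 (SD, n = 6 pairs), smallest on arrays 5 and 6 at 2.69. Probe 4169 followed with a gap of 0.384 and a log2 difference of 2.83 ± 0.68, and probe 3442 with 0.341 and 2.97 ± 0.59. Probe 4315, sixth in the order, differed by 3.75 ± 0.28 with 3.59, 3.88 and 3.76 in the sets, so it was both large and even. Probes 1511, 3323, 3751, 1415 and 3725 had gaps of 0.285 to 0.319 and log2 differences of 2.14 to 3.18.

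A large log2 difference and a wide gap picked partly different probes. Probe 4585 had the largest log2 difference, 4.45 ± 2.28, and stood at place 43 by gap. Its white-light intensities were 0.0125 to 0.199 (median 0.135) and its blue-light intensities 2.12 to 4.28 (median 3.86). The sets gave 3.86, 7.06 and 2.44, and the set with the highest holds the dimmest white-light spot, on array 3. Probe 2150, which lists several genes, differed by 4.12 ± 0.63 and was the brightest member under blue light, at 9.26 to 13.7 (median 10.02) against 0.207 to 1.33 (median 0.256). It stood at place 146, with a highest white-light rank of 0.912, on array 4, and a lowest blue-light rank of 0.988. Probe 2768, with 4.6 to 13.5 (median 9.21) under blue light and 0.149 to 0.466 (median 0.290) under white light, differed by 4.08 ± 0.98 at place 50. Probes 3452 and 1085, also among the brightest under blue light, differed by 3.56 ± 0.27 and 2.82 ± 0.53. On all blue-light arrays 22 members ranked above 0.9. No member reached the end of the scale, the highest value being 13.7.

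At the other end, probes 323, 557 and 1774 were brighter under blue light by 0.90 ± 0.25, 0.95 ± 0.38 and 0.98 ± 0.20 on the log2 scale. Together with AT1G03660 and AT1G50390 they are the 5 members under 2-fold. Probe 323 had 0.143 to 0.455 (median 0.351) under white light and 0.612 to 1.28 (median 1.11) under blue light. Its arrays were tight within the white-light group, with an SD of 0.133 on the log2 scale (n = 6). The limit of the selection fell within a smooth range of gaps. The last probes inside, 550, 3329 and 419, had gaps of 0.0750, 0.0747 and 0.0741, and the first outside, 1942, 629 and 4295, had 0.0727, 0.0715 and 0.0707. Their log2 differences were 1.26, 2.04 and 1.66 inside and 1.26, 1.48 and 2.097 outside.

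The rule fixes the direction in each set of arrays, and the size varied between them. The median log2 difference of the 150 members was 1.94 on arrays 1 and 2, 1.95 on arrays 3 and 4, and 1.75 on arrays 5 and 6, where the medians of all tested probes were -0.16, -0.10 and -0.07. At least 2-fold differences were seen for 131, 143 and 131 members, and 115 reached 2-fold in all 3 sets. These counts were not made for other probes, and nothing is read from them. For the single member the sets often disagreed on size. The range over the 3 sets had a median of 0.98 and exceeded 1 on the log2 scale for 74 members. The smallest of the 3 values came from arrays 5 and 6 for 74 members, from arrays 1 and 2 for 41 and from arrays 3 and 4 for 35. Across the 150 members the differences correlated between sets at r = 0.584 (sets 1 and 2 with 3 and 4), 0.287 (1 and 2 with 5 and 6) and 0.251 (3 and 4 with 5 and 6), where the points share the selection rule. These sets share no array.

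For some of the named genes the difference on arrays 5 and 6 stood apart. For 8 of the 30 single-gene probes, AT2G31800, ILA, HEMA3, APS4, AT4G13200, AT1G33250, AT1G64430 and AT2G38070, the difference on arrays 5 and 6 exceeded that of both other sets by more than 1 on the log2 scale. AT1G33250 had 1.69, 1.35 and 3.79, and AT1G64430 had 1.73, 1.56 and 3.99. The same was seen for 18 of all 150 members. Among the 30 genes another set exceeded the rest by that much only for AT1G24360 (2.97, 1.16 and 1.87) and AT4G04370 (2.57, 1.51 and 1.55). In each case it was arrays 1 and 2. Over the 150 members this was not counted for the other sets. Among the 30 genes the largest difference came from arrays 1 and 2 for 10 and from arrays 3 and 4 for 9. It came from arrays 5 and 6 for 11. Over the 150 members these counts were 48, 61 and 41. On white-light arrays 5 and 6, whose summed intensities were the lowest, AT1G64430 stood at 0.0306 and 0.0141 against 0.253 to 0.346 on the other white-light arrays. In the reverse direction, arrays 5 and 6 gave the smallest difference for 13 of the 30 genes, among them AT2G35390 (0.46) and AT5G09820 (0.53). Whether the low summed intensity of these arrays had a part in either pattern was not tested. In all, 21 of the 30 genes were at least 2-fold brighter in every set, beside 115 of all 150 members. Probes outside the selection were not counted in this way.

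**Figure D4:**
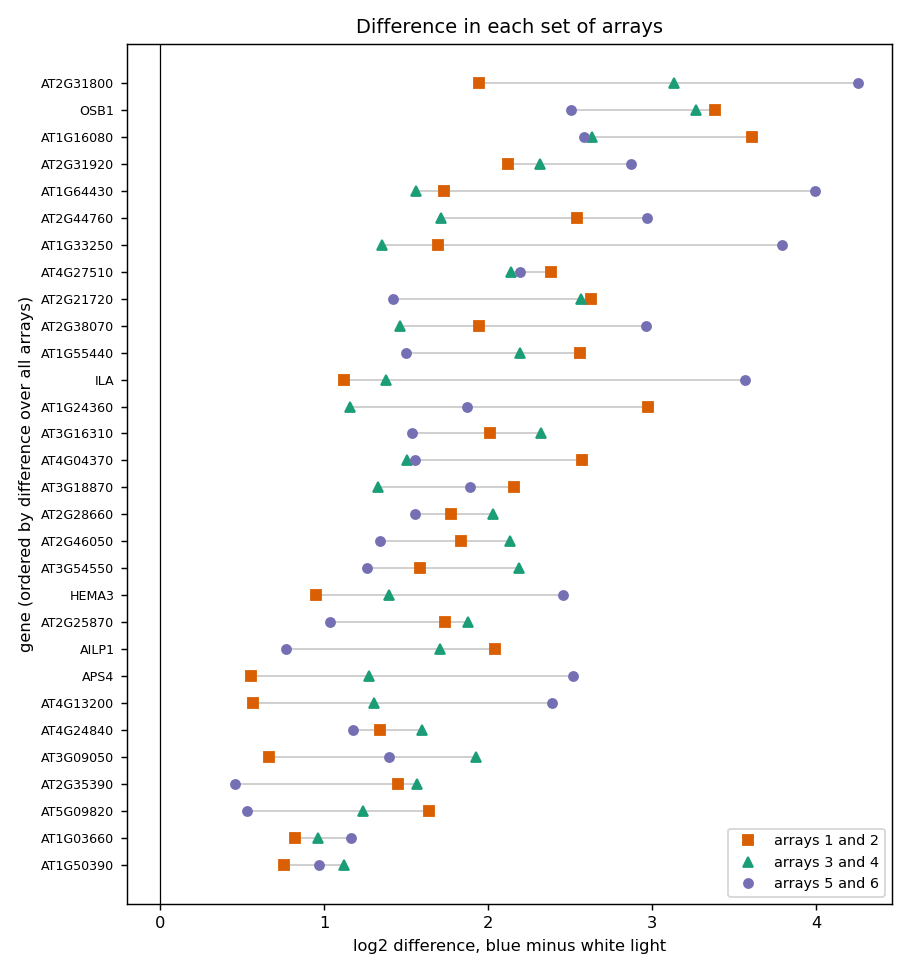
Log2 difference, blue minus white light (horizontal axis), for the 30 single-gene probes (vertical axis, ordered by the difference over all arrays) in each of 3 sets of arrays. Squares are arrays 1 and 2, triangles arrays 3 and 4, and circles arrays 5 and 6. All values are above 0, and for 8 genes the circle lies more than 1 to the right of both other symbols.

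The arrays that limited the gap were mainly the same pair. The highest white-light rank of a member came from arrays 5 and 6 for 77 of the 150 (51.3%), and the lowest blue-light rank came from arrays 5 and 6 for 73 (48.7%). Among all 2278 probes these shares were 46.4% and 38.6%. Blue-light array 5 alone held the lowest rank for 44 members. Repeating the rule without each array in turn kept 125 to 148 of the 150, with the fewest kept without white-light array 6. In all 12 repeats 119 members were kept, including each of the 75 with the widest gaps and 23 of the 30 single-gene probes. Without arrays 5 and 6 of both groups 96 members were kept. APS4, AT1G03660 and AT1G50390 were kept in 8, 5 and 3 of the 12 repeats.

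Within each light the members spread about as much as other probes of like brightness, or somewhat less. The SD over the 6 arrays had a median of 0.600 (white light) and 0.256 (blue light) on the log2 scale. Probes of the same brightness decile that were not members had medians of 0.684 and 0.289, and 109 of the 150 members lay below their decile's median under white light and 90 under blue light. A rule that compares extremes favours probes with small spreads, so this is a description. The spread was smaller under blue light for 86.7% of the members and for 82.4% of the 2278 probes. For 79 members the log2 difference exceeded 3 times the larger of the 2 group SDs. The rule favours such probes and the count was not made for others, so nothing is read from it.

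The probe numbers of the members were unevenly placed in one respect. After division by 6, 54 members (36.0%) left a remainder of 5, against 18.2% of the probes that could be chosen, and 20 members (13.3%) left a remainder of 2, against 21.7%. The 150 probes with the widest gap in the other direction, dimmer under blue light, gave 16.0% and 30.7% for the same remainders. The members with remainder 5 had a median log2 difference of 2.03, and those with remainders 1, 3 and 4 had 1.80, 1.81 and 1.79. Remainder 2 had 2.14. In blocks of 800 numbers the share of members ran from 14.0% to 19.3%, and that of the probes that could be chosen from 13.2% to 18.3%. Next to another member stood 8 members, a count that was not made for other probes. What a probe number stands for is not stated in the labels, and its part in the differences was not tested.

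**Figure D5:**
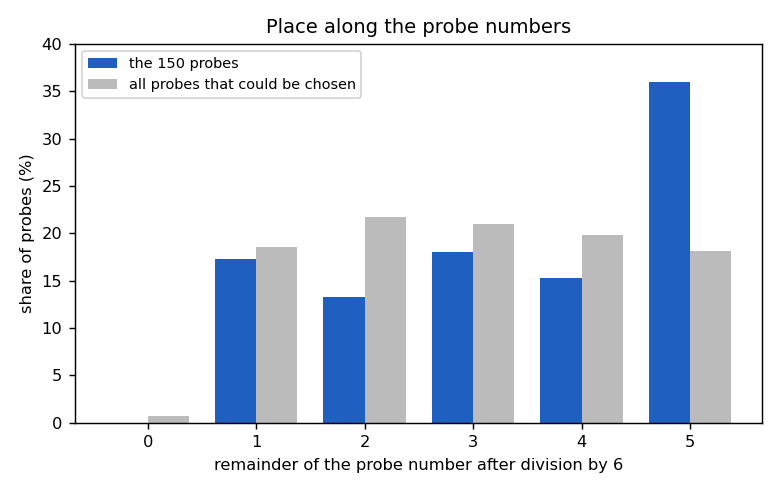
Share of probes in % (vertical axis) by the remainder of the probe number after division by 6 (horizontal axis), for the 150 probes (blue bars) and all 2278 probes that could be chosen (grey bars). The blue bar at remainder 5 stands at 36.0% and the grey bar at 18.2%.

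The opposite selection was of similar size. Of the 2278 probes, 310 had all white-light ranks above all blue-light ranks, beside the 308 with the reverse. The 150 widest of these had a median log2 difference of -1.89 and a median gap of 0.126, against 1.89 and 0.138 for the members. These are values side by side, and their difference was not tested.

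Genes of background lists could be looked up only on the 692 of 3439 probes with a single gene. Of 116 genes on 8 lists, covering the light-harvesting antenna, both photosystems, carbon fixation, photoprotection, flavonoid synthesis, photoreceptors and chaperones, 5 stood on a probe with a single gene. How many genes of other lists would be found there was not counted, so nothing is read from this number. None of the 5 was a member, beside 30 of all 692 single-gene probes. PSBW, a small subunit of photosystem II, rose in the fit over all probes (log2 difference 1.66 ± 0.20 SE, limma adjusted p = 4.04e-05). Its intensities were 4.26 to 25.03 (median 14.0) under white light and 56.5 to 81.7 (median 66.8) under blue light, so that the groups did not overlap, and it was not open to the selection as one of the 100 brightest probes. With those 100 let in, the rule chose the same 150 members, so PSBW was not chosen then either. Ranks end at 1, so probes with the highest mean ranks have little room for a gap. Nothing about PSBW is therefore read from this repeat. PSAN, a luminal subunit of photosystem I, fell (log2 difference -1.10 ± 0.35 SE, limma adjusted p = 0.0213), with intensities of 1.90 to 2.94 (median 2.48) and 1.73 to 3.35 (median 2.06) that overlapped. This call was lost under median centring (-0.63), without normalization (-0.08), with averaged sets, with the sets as a random block, and without arrays 1 and 2 (-1.21) or 3 and 4 (-1.16).

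PSBY, another small subunit of photosystem II, had 0.512 to 1.42 (median 0.855) under white light and 1.93 to 2.66 (median 2.42) under blue light. Its log2 difference of 0.38 ± 0.16 (SE) did not pass (limma adjusted p = 0.0745), while it passed under median centring (0.89), without normalization (1.45), with a pseudocount (0.43), without white-light array 5 (0.43) and without arrays 5 and 6 (0.49). PRK, the phosphoribulokinase of carbon fixation, had 0.272 to 0.518 (median 0.428) and 0.491 to 0.985 (median 0.819), which overlapped. After normalization its log2 difference was 0.04 ± 0.23 (SE, limma adjusted p = 0.919), and without normalization it was 0.88 and passed. SBPASE, a phosphatase of the same cycle, was listed at 0 on 5 of 6 arrays in each light and was not tested.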

How the data were processed

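The authors deposited 1 table of spot intensities for 3439 probes and 12 arrays, and these deposited intensities are linear, from 0 to 100. How background was corrected and arrays were scaled is not stated per the labels or the file header. Columns were assigned to samples by their labels. Values of 0 were set to missing before taking log2, and arrays were quantile normalized (limma 3.58.1, R 4.3.3). Probes above 0 on at least 4 of 6 arrays in each group were fitted with limma (lmFit and eBayes, 12 arrays, no covariates, two-sided, Benjamini-Hochberg over 2776 probes, threshold 0.05). Selection and summaries used pandas 2.3.3 in Python 3.11.15, and figures matplotlib 3.10.9. The fit was tested on simulated data with independent noise on each array. That test does not cover the resemblance of arrays within sets or pairs.

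The members and gene lists were chosen with earlier results of these data known, and the contrast that chose the members serves only to describe them, calls from the fit included. Named were the 10 members with the widest gap, the 5 with the largest and the 5 with the smallest log2 difference, the 5 brightest under blue light and genes on the lists. All 30 single-gene members and other probes of their genes were added after seeing the data. Names come from GEO's annotation of the platform, updated by gene identifier through RefSeq (assembly TAIR10.1). It lists 1562 probes, 692 with 1 gene, of which 690 matched, and 870 with several.

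Array numbers are shared between the groups in the labels. Deviations from the group means correlated at 0.139 to 0.309 for all 6 same-numbered pairs, and all 12 arrays were best matched by their own number, so the numbers were taken to pair the arrays. The ± SD over pairs uses them, while the main fit, which gave the quoted SEs and adjusted p values, does not. With the replicate number as a block 1371 probes differed, 586 of them higher, against 1257 and 544 in the main fit. Alternatives covered normalization, zeros, filters, threshold, the replicate block, sets of arrays, single arrays and the selection rule. Leaving out whole sets and sets as a random block were added after seeing the data.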

Additional observations from a re-analysis of the deposited data

Results flagged for a closer look

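Among 96 groups of 6 arrays examined for a single array far from the others, 4 held one, and chance alone flags about 1 group in 20. The number flagged is thus no more than chance alone would give. All 4 were the lowest white-light value of a member on the normalized log2 scale. The rule uses the highest white-light rank and the lowest blue-light rank. A single low white-light array therefore does not count against a probe, and nothing is read from the side of these values. AT4G13200 stood at -5.69 on white-light array 5, with the next array at -3.58. AT2G38070 stood at -5.28 on white-light array 6, with the next at -3.36. Probe 1511 stood at -5.23 on white-light array 2, with the next at -4.56. Probe 323 stood at -1.69 on white-light array 5, with the next at -1.43.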

How the results depend on the processing

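The median log2 difference of the members was 1.89. It was 2.48 without normalization between arrays and 1.77 with a pseudocount of 0.0248, and 1.84 to 1.95 without each array in turn. Of the 150 members, 149 were called higher, 148 to 150 without each array, 128 with averaged sets, 132 with the sets as a random block, and 89 of the 89 still tested when only probes above the median level were kept. Over all tested probes 544 of 2776 were called higher, and 467 to 555 without each array. With averaged sets 228 of 2776 were, with the sets as a random block 269 of 2776, and above the median level 359 of 1388. The selection used this contrast, so nothing is read from the counts of members. Over all probes 1257 differed, 544 of them higher, 1087 to 1271 without each array, 521 with averaged sets, 653 with the sets as a random block, 726 above the median level, 815 at an adjusted p of 0.01 and 807 without arrays 1 and 2 of both groups. The replicate block gave 1371 probes, 586 of them higher, 148 members and a median of 1.89. Repeating the selection kept 125 to 148 of the 150 members without each array, 96 without arrays 5 and 6 of both groups and 95 when ordered by mean log2 difference. Of 1034 values for the 47 named members over 22 alternatives, none reversed and 29 moved by more than the SD over pairs, 27 of them without normalization. The cause of these shifts was not tested. For all 150 members every blue-light array exceeded every white-light array, in deposited and in normalized values, a count not made for other probes. The selection thus left little room for a reversal, and nothing is read from its absence. The replicate block and the alternatives with sets keep a member's mean difference unchanged by construction. Values near 0 on the white-light arrays limit the sizes for the 19 members with a white-light spot under 0.02, a limit chosen after seeing the data. Those named are OSB1, AT4G13200, AT2G38070, AT1G64430, AT1G33250 and probes 4585, 4169, 3329 and 1485.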
